A study of Arabidopsis thaliana with 24 samples.

Results

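ORA47 (AT1G74930, probe set 262211_at, chromosome 1), JMT (AT1G19640, probe set 261150_at, chromosome 1) and JAL34 (AT3G16460, probe set 259327_at, chromosome 3) are 3 of the 13355 genes of Arabidopsis thaliana that had a probe set of their own on the ATH1 array. Each of the 3 had 1 such probe set. A probe set of its own means here one that the array annotation used linked to that gene alone. That annotation named no gene for 8730 probe sets, so a gene without one may still be on the array. Genes called measured below are those with such a probe set. ORA47, JMT and JAL34 were chosen from measured values of the same arrays, for the pattern of their levels over genotype and treatment. Their levels and differences are therefore given as a description, without a test, while other genes of the same pathway and families were tested. The lists of those other genes were also made with earlier results of these data known. A call on a list is therefore no independent support.

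Jasmonates are lipid-derived hormones made from fatty acids of the chloroplast, and their isoleucine conjugate is sensed by the receptor COI1, which leads to the loss of JAZ repressors and frees MYC transcription factors. They act in wound and insect defence, and in leaves they are known for a mutual antagonism with salicylic acid. ORA47 encodes an AP2/ERF transcription factor that activates jasmonate synthesis genes. JMT encodes the jasmonic acid carboxyl methyltransferase, which makes the volatile methyl jasmonate. JAL34 encodes a jacalin-related lectin, a carbohydrate-binding protein of a family that includes partners of the β-glucosidases (myrosinases) that break down glucosinolates. No hormone was measured on these arrays, so the word jasmonate here refers to the known roles of the genes.

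RNA of whole plants of the wild-type accession Col-0, of the knockout mutants mkk1 (SALK_027645) and mkk2 (Garlic_511-HO1), and of the mkk1/mkk2 mutant that combines them was measured without treatment and 24 h after BTH (benzothiadiazole, a synthetic compound that acts like salicylic acid), with 3 arrays in each of the 8 groups. MKK1 and MKK2 encode MAP kinase kinases and were not analysed here, since neither had a probe set of its own in the array annotation used. Short days were used, of 8 h light (21 °C) and 16 h dark (16 °C), on soil either in a greenhouse or in growth chambers. In Col-0 the title of an untreated sample gives Time 0, whereas the untreated mutants carry no time, so the sampling hour of the untreated plants may differ between genotypes, and no sample is titled as a mock spray. A spray of 100 µM is stated for the 6 BTH samples of mkk2 and mkk1/mkk2 only. The treatment notes of the other 18, which include Col-0 and mkk1 after BTH, name a control treatment, so the BTH label of Col-0 and mkk1 rests on titles and source names. The description fields call every sample a wild-type plant without BTH, against the titles. The labels do not say that replicates were separate plants, and the p-values measure only the spread between these samples.

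All values are log2 levels, on which a difference of 1 is a 2-fold difference in signal. The medians of the 24 arrays lay between 5.57 and 5.78. The difference between the spiked controls bioC and bioD separated 2 sets of arrays. It was between −2.51 and −2.01 on the 12 arrays of Col-0 and mkk1/mkk2 and between −3.82 and −3.54 on the 12 arrays of mkk1 and mkk2. A single mutant and this array set therefore cannot be told apart in comparisons with Col-0, whereas BTH comparisons within a genotype and mkk1/mkk2 against Col-0 stayed within one set. The arrays A of untreated mkk1/mkk2 and of Col-0 after BTH and array B of untreated mkk2 stood apart from their own groups, with mean correlations to them of 0.933, 0.975 and 0.976. At most 1 array per group was picked in this way. Arrays B and C of untreated mkk1/mkk2 had 0.961 and 0.962, lower than the arrays picked from Col-0 after BTH and untreated mkk2. Untreated mkk1/mkk2 was thus the group whose arrays were least alike.

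ORA47 was highest in untreated Col-0. Its log2 levels there were 8.64, 8.81 and 8.40 on arrays A, B and C. The other 21 arrays lay between 5.46 and 7.19, below every untreated Col-0 array. After BTH the Col-0 levels were 7.09, 6.81 and 6.25. In the untreated mutants they were 7.04, 6.30 and 5.85 in mkk1, 7.19, 6.24 and 6.16 in mkk2 and 7.08, 5.62 and 5.74 in mkk1/mkk2. Array A was the highest of each of those mutant groups, and these 3 groups overlapped with one another. Array A was also the highest in Col-0, mkk1 and mkk2 after BTH, but not in untreated Col-0 or in mkk1/mkk2 after BTH. The lowest group was mkk1/mkk2 after BTH, with 5.46, 5.63 and 5.78, which overlapped with mkk1 after BTH (6.46, 5.62 and 5.71) and met mkk2 after BTH (6.16, 5.78 and 6.07) at 5.78. Ordered by mean, the groups ran from untreated Col-0 (8.62 ± 0.21, SD, n = 3) to Col-0 after BTH (6.72 ± 0.43), untreated mkk2 (6.53 ± 0.57), untreated mkk1 (6.40 ± 0.60), untreated mkk1/mkk2 (6.15 ± 0.81), mkk2 after BTH (6.0 ± 0.20), mkk1 after BTH (5.93 ± 0.46) and mkk1/mkk2 after BTH (5.62 ± 0.16). The step of 1.90 between the highest group and the next was the one step between neighbours in this order at which the arrays did not overlap. A measure of RNA quality, the signal of the GAPDH control at its 3′ end minus that at its 5′ end, lay between 0.70 and 1.18 on the untreated Col-0 arrays and between 0.60 and 0.73 on those after BTH, and it lay between −0.07 and 0.61 in mkk1 and mkk2 and between 0.14 and 1.27 in mkk1/mkk2. Its part in the ORA47 levels was not tested. In whole plants, fewer cells of a type and less RNA per cell cannot be told apart for this or any later gene.

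**Figure D1:**
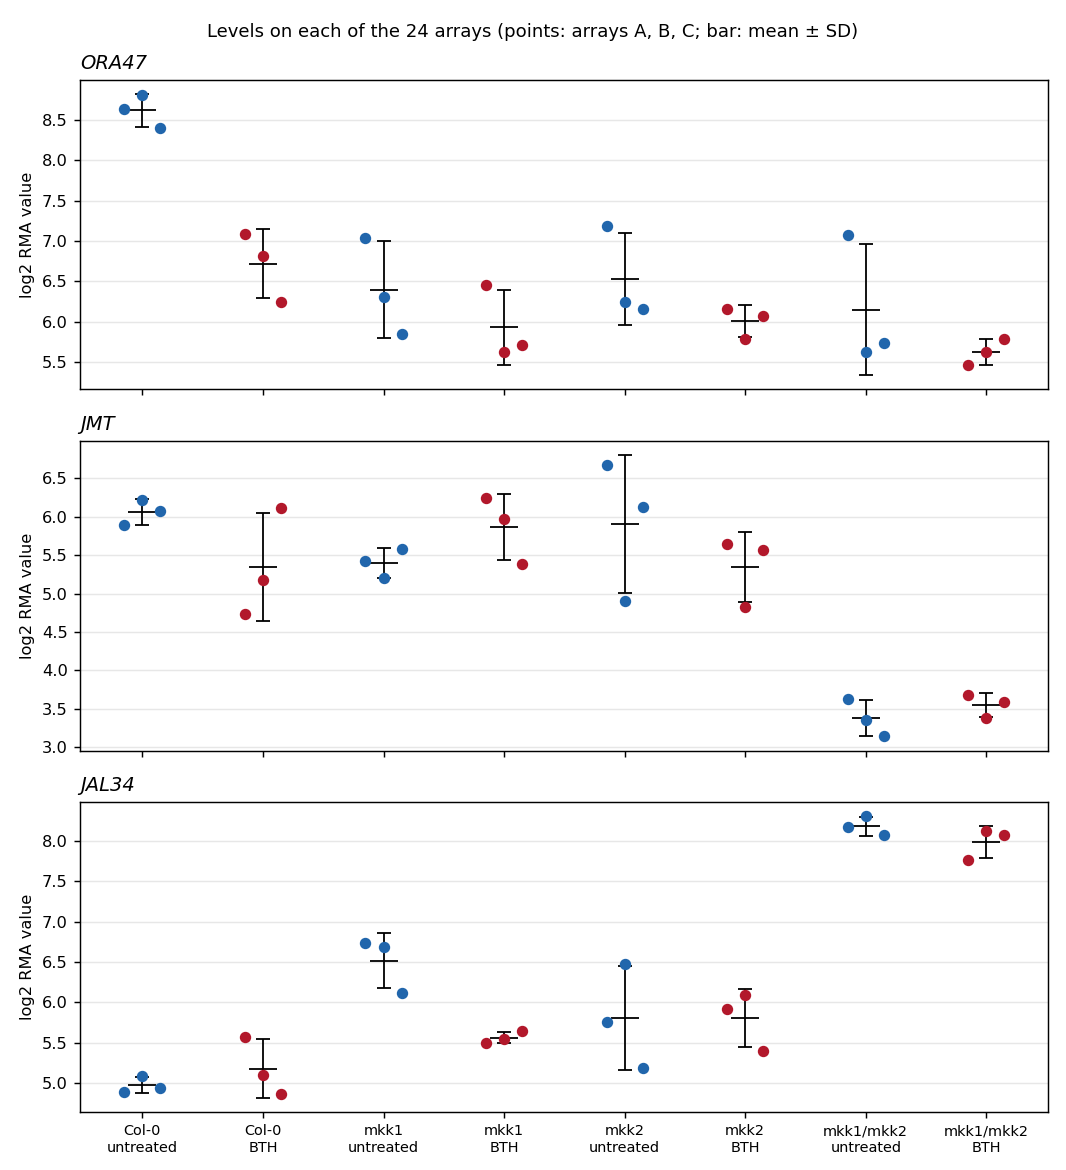
Log2 RMA level (vertical axis) of ORA47, JMT and JAL34 on the 3 arrays of each of the 8 groups (horizontal axis), with untreated arrays in blue, arrays after BTH in red and bars for mean ± SD. ORA47 stands out in the 3 untreated Col-0 arrays (8.40 to 8.81), JMT is lowest (3.15 to 3.68) and JAL34 highest (7.76 to 8.31) in the 6 mkk1/mkk2 arrays.

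Against its untreated plants, ORA47 was lower after BTH by −1.90 ± 0.36 (log2 difference ± standard error of the fit) in Col-0, a 3.73-fold difference. The differences in the mutants were −0.47 in mkk1, −0.53 in mkk2 and −0.52 in mkk1/mkk2, each with the same standard error of 0.36, and the arrays before and after BTH overlapped in all 3. Array A of the untreated plants carried most of each, and without it the values were −0.15 in mkk1, −0.20 in mkk2 and −0.06 in mkk1/mkk2. The 4 genotypes thus ended in a narrower range of means after BTH (5.62 to 6.72) than before it (6.15 to 8.62). Before treatment the mutants were lower than Col-0 by −2.22 (mkk1), −2.09 (mkk2) and −2.47 (mkk1/mkk2, 5.54-fold). After BTH the differences from Col-0 were −0.79, −0.71 and −1.09, and of these 3 comparisons the arrays were apart in mkk2 and mkk1/mkk2 only. The BTH difference of each mutant exceeded that of Col-0 by 1.43 (mkk1), 1.37 (mkk2) and 1.38 (mkk1/mkk2), each ± 0.51. These 3 values share the 6 Col-0 arrays. The last value was 2.03 without the 3 arrays that stood apart.

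JMT was lowest in the mkk1/mkk2 plants, treated or not. Its levels were 3.63, 3.36 and 3.15 in untreated mkk1/mkk2 and 3.68, 3.38 and 3.59 after BTH. The other 18 arrays lay between 4.74 and 6.67, so no array of another genotype reached down to those of mkk1/mkk2. On the 6 mkk1/mkk2 arrays the JMT value exceeded between 7.9% and 19.0% of the probe sets of its array, against 54.4% to 58.4% in untreated Col-0. Detection calls were not used here, and whether the low values lay above background is not known. A fold given for mkk1/mkk2 may accordingly be understated.

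In untreated Col-0 the JMT levels were 5.89, 6.22 and 6.07, and after BTH they were 4.74, 5.18 and 6.12. Array C after BTH lay within the untreated range, so the groups overlapped. The single mutants showed values like these, with 5.42, 5.20 and 5.58 in untreated mkk1, 6.24, 5.97 and 5.39 in mkk1 after BTH, 6.67, 4.91 and 6.13 in untreated mkk2, and 5.64, 4.82 and 5.57 in mkk2 after BTH. By mean the order was untreated Col-0 (6.06 ± 0.17), untreated mkk2 (5.90 ± 0.90), mkk1 after BTH (5.87 ± 0.43), untreated mkk1 (5.40 ± 0.19), Col-0 after BTH (5.35 ± 0.70), mkk2 after BTH (5.34 ± 0.45), mkk1/mkk2 after BTH (3.55 ± 0.15) and untreated mkk1/mkk2 (3.38 ± 0.24). Each group overlapped with its neighbour in this order, except at the step of 1.79 between mkk2 and mkk1/mkk2 after BTH. Untreated mkk1/mkk2 was below untreated Col-0 by −2.68 ± 0.36 (6.41-fold), and after BTH the difference was −1.80.

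The differences of JMT with BTH, each ± 0.36, were 0.17 in mkk1/mkk2, 0.47 in mkk1, −0.71 in Col-0 and −0.56 in mkk2. The Col-0 value was −1.10 without array C after BTH and −0.41 without array A. The arrays before and after BTH overlapped in each genotype. Untreated mkk1 was −0.66 from Col-0, with no overlap between the arrays, and untreated mkk2 −0.16, with overlap. After BTH mkk1 was 0.52 above Col-0, and the means of mkk2 and Col-0 were 5.34 and 5.35. Array B of untreated mkk2 set the sign of that genotype's value, which was 0.34 without it, and the mkk2 BTH difference was then −1.06. The BTH difference exceeded that of Col-0 by 1.18 in mkk1, 0.15 in mkk2 and 0.88 in mkk1/mkk2, each ± 0.51.

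JAL34 had the opposite arrangement, with its highest levels in mkk1/mkk2. They were 8.17, 8.31 and 8.07 untreated and 7.76, 8.13 and 8.08 after BTH. All other 18 arrays lay between 4.86 and 6.73, so the 6 mkk1/mkk2 arrays were apart from every array of the other genotypes. Col-0 was lowest, with 4.89, 5.09 and 4.94 before and 5.57, 5.10 and 4.86 after BTH. In mkk1 the levels were 6.73, 6.69 and 6.12 before and 5.50, 5.54 and 5.64 after BTH, which did not overlap. In mkk2 they were 5.76, 6.47 and 5.18 before and 5.92, 6.09 and 5.40 after, which did.

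Ordered by mean, JAL34 went from untreated mkk1/mkk2 (8.18 ± 0.12) and mkk1/mkk2 after BTH (7.99 ± 0.20) to untreated mkk1 (6.51 ± 0.34), untreated mkk2 (5.80 ± 0.65), mkk2 after BTH (5.80 ± 0.36), mkk1 after BTH (5.56 ± 0.07), Col-0 after BTH (5.18 ± 0.36) and untreated Col-0 (4.97 ± 0.10). Only the step of 1.48 below mkk1/mkk2 after BTH had no overlap between neighbours in this order. Against untreated Col-0 the levels were higher by 3.21 ± 0.25 in mkk1/mkk2 (9.25-fold), 1.54 in mkk1 and 0.83 in mkk2, and the mkk2 value was 0.50 without its array B. After BTH the differences were 2.81 (7.03-fold), 0.38 and 0.63 in the same order. With BTH, JAL34 differed by 0.20 in Col-0, −0.95 in mkk1, 0.00 in mkk2 and −0.19 in mkk1/mkk2. The BTH difference departed from that of Col-0 by −1.16 in mkk1, −0.20 in mkk2 and −0.40 in mkk1/mkk2, each ± 0.36.

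The 3 genes were set beside all 22746 probe sets by counting groups whose arrays did not overlap, the share over all probe sets being given in parentheses. With BTH this held for 1 of the 3 genes in Col-0 (26.8%), ORA47, and for 1 in mkk1 (31.2%), JAL34, and for 0 in mkk2 (27.8%) and 0 in mkk1/mkk2 (12.8%). Among the untreated comparisons with Col-0 it held for 3 in mkk1 (38.9%), 2 in mkk2 (27.2%), JAL34 and ORA47, and 3 in mkk1/mkk2 (35.8%). After BTH it held for 0 in mkk1 (24.1%), 1 in mkk2 (24.5%), ORA47, and 3 in mkk1/mkk2 (39.2%). The genes were selected on these values, and nothing is read from the counts. How many of all probe sets part untreated Col-0, or mkk1/mkk2, from every other array was not counted. Whether such a separation is common is therefore not known, for these genes or any later one.

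Across the 24 arrays JMT and JAL34 ran opposite to each other (Pearson's r = −0.90), while ORA47 followed neither closely (r = 0.47 with JMT and −0.49 with JAL34). These coefficients describe arrays of 8 groups that share a normalization, and the value for JMT and JAL34 includes the distance between the mkk1/mkk2 arrays and the rest.

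Of the 4 lists of other jasmonate genes, 13 of 92 genes had a probe set of their own in the array annotation used. They are 3 of 26 synthesis genes (OPCL1, AIM1 and DGL), 4 of 16 turnover genes (AT3G11180, AT5G05600, JRG21 and AT2G38240, the jasmonate oxygenases that hydroxylate jasmonic acid), 3 of 28 signalling genes (MYC3, MYC4 and AT4G00870, bHLH transcription factors) and 3 of 22 response genes (the defensin genes PDF1.2 and PDF1.2b and the thionin gene THI2.1). Other members, such as the JAZ repressors, the lipoxygenases and VSP2, were not analysed here. A gene was called at a limma p under 0.05 after Benjamini-Hochberg adjustment over all 22746 probe sets.

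BTH called 0 of the 13 in any genotype by limma. The share called over all probe sets was 8.82% in Col-0, 8.57% in mkk1, 10.7% in mkk2 and 0.334% in mkk1/mkk2. At an unadjusted p under 0.05 the counts were 2, 0, 0 and 3 of 13, against 4611, 4602, 4801 and 2770 of all 22746 probe sets. The median difference of the 13 was −0.07 in Col-0, 0.05 in mkk1, −0.08 in mkk2 and −0.03 in mkk1/mkk2, against −0.04, −0.01, −0.06 and −0.04 over all probe sets. In Col-0 the members furthest from 0 were PDF1.2b (−0.94) and MYC4 (−0.88), which did not pass. Array C of untreated Col-0 touches this count, since leaving it out gave 3 calls over the 4 comparisons.

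In the untreated mkk1/mkk2 plants 5 of the 13 rose and 1 fell against Col-0, where 33.3% of all probe sets were called, and the median difference was 0.37 against −0.01 over all probe sets. The largest difference was that of JRG21, an oxygenase gene. Its levels were 3.93, 3.76 and 3.55 in untreated Col-0 and 7.80, 6.64 and 6.27 in untreated mkk1/mkk2, a rise of 3.16 ± 0.38 (8.92-fold, limma adjusted p = 2.2e-06). The groups were far apart, and no array of Col-0, mkk1 or mkk2 exceeded 5.18. The related AT2G38240 rose by 0.74 (adjusted p = 0.0381), with overlapping arrays. PDF1.2b rose by 1.38 ± 0.36 (adjusted p = 0.0049) and PDF1.2 by 1.10 ± 0.39 (adjusted p = 0.0357). The PDF1.2b call ended with only the arrays compared in the fit (0.0904). Probe sets of closely related genes can share signal, and how far that holds for PDF1.2 and PDF1.2b was not tested. Their rises may therefore not be separate ones in the count above. PDF1.2 is among the best-known outputs of the joint jasmonate and ethylene branch, and its levels were 6.29, 5.94 and 5.06 in untreated Col-0 and 6.95, 6.26 and 7.39 in untreated mkk1/mkk2, which overlapped. AIM1, a multifunctional enzyme of peroxisomal β-oxidation, rose by 0.74 ± 0.21 (adjusted p = 0.00916). MYC4, which activates jasmonate responses, fell by 2.39 ± 0.36 (adjusted p = 3.02e-05). Leaving out single arrays ended 3 of these calls. The adjusted p reached 0.202 for AT2G38240 over the alternatives tried and its call ended without array A or C of either group, it reached 0.193 for PDF1.2, whose call ended without array B or C of Col-0 or A or C of mkk1/mkk2, and it reached 0.0703 for AIM1, whose call ended without array A of Col-0 or B of mkk1/mkk2.

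In the single mutants the same pair of genes, AIM1 and MYC4, was called before treatment, which is 1 up and 1 down of 13 in mkk1 (17.3% of all probe sets called) and in mkk2 (7.63%). AIM1 rose by 0.71 in mkk1 (adjusted p = 0.024) and by 0.86 in mkk2 (adjusted p = 0.017). Its adjusted p reached 0.137 and 0.128 over the alternatives, and both calls ended without array A or B of untreated Col-0 or array A of the mutant, that in mkk1 also without its array B. MYC4 fell by 1.52 in mkk1 (adjusted p = 0.00685) and by 1.51 in mkk2 (adjusted p = 0.016). Its untreated Col-0 levels were 8.22, 6.69 and 6.0, a wide range, and those of the mutants lay between 5.42 and 5.50 in mkk1 and 5.26 and 5.62 in mkk2. The mkk2 call ended without array A of untreated Col-0, with an adjusted p of 0.0956, and both MYC4 calls ended with only the arrays compared in the fit (0.0591 and 0.138). Without that array the 3 untreated comparisons gave 5 calls in place of 10. The medians of the 13 were −0.07 in mkk1 and 0.14 in mkk2, against 0.00 and 0.03 over all probe sets.

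After BTH, limma called 0 of the 13 in mkk1 (0.620% of all probe sets called) and 0 in mkk2 (1.83%). At an unadjusted p under 0.05 the counts there were 3 and 2 of 13, against 3657 and 3686 of all 22746 probe sets. Limma called 3 higher and 1 lower in mkk1/mkk2 (21.6%). In mkk1/mkk2 JRG21 rose by 3.60 ± 0.38 (12.2-fold, adjusted p = 7.86e-07), AT2G38240 by 1.19 (adjusted p = 0.00264) and AIM1 by 1.22 (adjusted p = 0.000212), and MYC4 fell by 1.29 (adjusted p = 0.0135, and up to 0.059 without array A of Col-0 after BTH). Neither defensin gene passed here, with differences of 0.04 for PDF1.2 and 0.90 for PDF1.2b (adjusted p = 0.968 and 0.0823), the PDF1.2b arrays not overlapping. The median was 0.38 against −0.05 over all probe sets. In the tests of whether a mutant's BTH response differed from that of Col-0, 0 of the 13 were called in any mutant by limma, where 0% (mkk1), 0.0220% (mkk2) and 2.33% (mkk1/mkk2) of all probe sets were called. At an unadjusted p under 0.05 these counts were 1, 0 and 1 of 13, against 2237, 873 and 2830 of all 22746 probe sets.

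**Figure D2:**
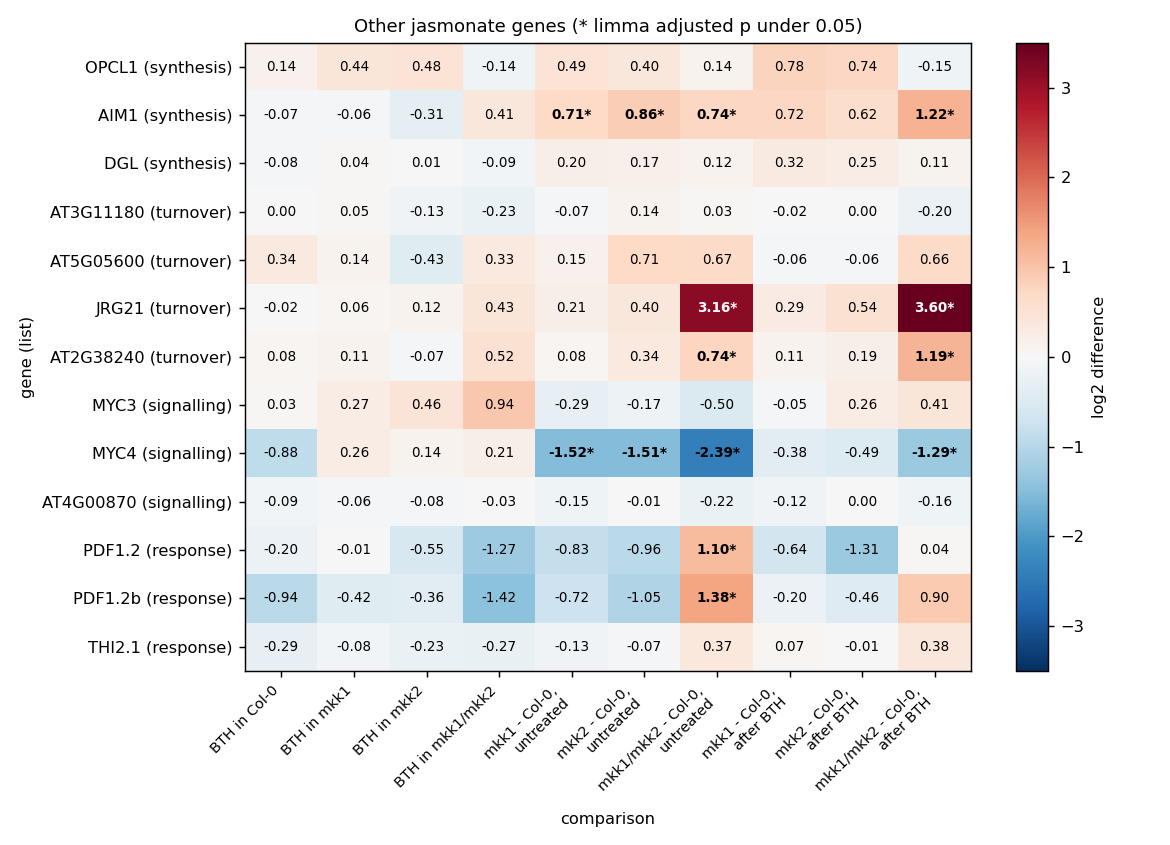
Log2 difference (colour and printed value) of the 13 measured jasmonate genes (vertical axis) in 10 comparisons (horizontal axis), with an asterisk where the limma adjusted p was under 0.05. The 4 BTH columns hold no asterisk, and JRG21 stands out in mkk1/mkk2 at 3.16 untreated and 3.60 after BTH.

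Genes of the family of ORA47 were few on the list. Of the DREB A-5 subgroup of AP2/ERF factors, to which ORA47 belongs, 5 of 14 other members were measured, and TINY2 was the 1 further family member identified by its symbol. TINY2, a DREB-type factor, had levels of 7.86, 7.02 and 6.57 in untreated Col-0 and 4.69, 5.01 and 5.61 after BTH, without overlap. It fell by 2.05 ± 0.31 (adjusted p = 0.000211). Like ORA47 it was highest in untreated Col-0, and it fell in the untreated mutants, with differences from Col-0 of −1.65 in mkk1 (adjusted p = 0.00159), −1.58 in mkk2 (adjusted p = 0.00562) and −2.55 in mkk1/mkk2 (adjusted p = 2.26e-06). ORA47, which was not tested, differed with BTH by −0.47 in mkk1 and −0.53 in mkk2, with overlapping arrays. TINY2 was called lower with BTH within mkk1 (by 1.19, adjusted p = 0.02) and mkk2 (by 1.16, adjusted p = 0.0175). Each of these last calls could be ended by leaving out 1 array, in mkk1 untreated A or B or BTH B or C, in mkk2 array C of either group, with adjusted p of up to 0.0714 and 0.098, and the untreated mkk2 call ended without array A of Col-0 (0.0513). After BTH, TINY2 was lower in mkk1/mkk2 than in Col-0 by −1.03 (adjusted p = 0.021, and up to 0.108 without array C of either group).

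Within the A-5 subgroup 1 of 5 genes fell with BTH in Col-0 (8.82% of all probe sets called), AT1G22810, with a difference of −0.69 (adjusted p = 0.0191). It was also the 1 called in untreated mkk1 (17.3% of all probe sets), where it fell by 0.62 (adjusted p = 0.0236), and it fell in untreated mkk1/mkk2 by 0.51 (adjusted p = 0.0365), where 1 of 5 rose and 1 fell (33.3%). Its untreated Col-0 levels were 3.87, 4.77 and 4.77, and all 3 calls ended without array B or C, with adjusted p of up to 0.126, 0.132 and 0.196 when 1 array was left out. Each also ended without further arrays of the other group, array B in Col-0 after BTH and B or C in the untreated mutants. AT1G77640 went the other way, with a rise of 1.60 in untreated mkk1/mkk2 (adjusted p = 0.000822) and of 1.50 after BTH (adjusted p = 0.00247), the 1 call there (21.6% of all probe sets). The other members, AT1G19210, AT1G33760 and AT1G44830, were called in no comparison by limma. The correlation with ORA47 over the 24 arrays was 0.83 for TINY2 and 0.75 for AT1G22810.

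ORA47 is also known to respond rapidly to wounding, and a list of 33 genes with such rapid responses had 7 measured members. They did not share one direction. With BTH 2 rose and 1 fell in Col-0 (8.82% of all probe sets called), 1 rose and 1 fell in mkk1 (8.57%), and 3 rose and 1 fell in mkk2 (10.7%). In mkk1/mkk2 0 were called by limma (0.334%). There 1 of 7 had an unadjusted p under 0.05, against 2770 of all 22746 probe sets. PUB24, a U-box ubiquitin ligase gene, rose by 1.48 in Col-0, 1.56 in mkk1 and 2.05 in mkk2 (adjusted p = 0.00502, 0.0035 and 0.000173), and its relative PUB25 fell by 1.75, 1.69 and 1.86 (adjusted p = 0.001, 0.00152 and 0.000376). CML37, a calmodulin-like gene, rose by 1.42 in mkk2 (adjusted p = 0.000701) and by 0.86 in Col-0 (adjusted p = 0.0376, and up to 0.165 when any of the BTH arrays or array A or B of untreated Col-0 was left out).

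STZ, a zinc finger repressor also called ZAT10, had untreated Col-0 levels of 7.53, 8.75 and 9.57. It fell in untreated mkk1 by 1.46 (adjusted p = 0.0307) and in untreated mkk2 by 1.85 (adjusted p = 0.0172), which was the 1 call of the list in each (17.3% and 7.63% of all probe sets called). Both calls ended without array B or C of untreated Col-0 or of the mutant, with adjusted p of up to 0.157 and 0.0949. In mkk2 it rose with BTH by 1.65 (adjusted p = 0.0205, and up to 0.0923 without untreated array B or C or BTH array A or C). In untreated mkk1/mkk2, where 33.3% of all probe sets were called, 2 of the 7 rose and 1 fell, CML37 (3.32, adjusted p = 4.88e-09), PUB24 (2.32, adjusted p = 9.49e-06) and PUB25 (−1.91, adjusted p = 6.89e-05). After BTH (21.6% of all probe sets) 2 rose, CML37 (2.46, adjusted p = 5.15e-07) and STZ (1.50, adjusted p = 0.0205, and up to 0.0844 without array C of Col-0 or A of mkk1/mkk2). Over the 24 arrays STZ had a correlation of 0.01 with ORA47. The time between harvest and freezing is not stated, and its part in the ORA47 levels was not tested.

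JMT belongs to the SABATH family, methyltransferases that act on small carboxylic acids and include the salicylic acid methyltransferase BSMT1. Of 23 other members 15 were measured, and most did not pass in any comparison. AT3G21950 showed a pattern near that of JMT in mkk1/mkk2. Its levels were 6.85, 7.15 and 7.14 in untreated Col-0 and 4.91, 5.27 and 5.01 in untreated mkk1/mkk2, with no overlap, and it fell by 1.98 ± 0.30 (adjusted p = 2.88e-05). After BTH it was lower in mkk1/mkk2 than in Col-0 by −1.93 (adjusted p = 7.68e-05). It was the 1 SABATH gene called with BTH in mkk1 (8.57% of all probe sets) and in mkk2 (10.7%). It fell in mkk1 by 1.21 (adjusted p = 0.0141, and up to 0.0748 without untreated array A or B or BTH array B). In mkk2 it fell by 0.94, a call at the threshold (adjusted p = 0.0492) that was lost in 21 of 33 alternatives tried.

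In untreated mkk1/mkk2 2 SABATH genes rose beside the 1 that fell, so 3 of 15 were called where 33.3% of all probe sets were. AT4G36470 rose by 0.82 (adjusted p = 0.000595), from levels of 4.92, 4.82 and 4.86 in Col-0 to 5.38, 5.83 and 5.85, with no overlap. AT5G38020 rose by 0.42 (adjusted p = 0.0466), a call lost in 25 of 32 settings. After BTH 1 rose and 2 fell, 3 of 15 against 21.6% of all probe sets, and neither share of the family was above that of all probe sets. Beside AT3G21950 these were AT5G38780 (0.66, adjusted p = 0.0164, and up to 0.117, the call ending without array A or B of Col-0 or A of mkk1/mkk2) and AT5G38100 (−0.32, adjusted p = 0.0471, lost in 21 of 32 settings). The median of the 15 was −0.04 in untreated mkk1/mkk2, and BSMT1 was called in no comparison by limma. The correlation of AT3G21950 with JMT was 0.67 over the 24 arrays.

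JAL34 lies beside JAL33 on chromosome 3, with no gene between them in the reference table of genes (assembly TAIR10.1), and 3 other jacalin-related lectin genes were measured. JAL33 followed JAL34 most closely. Its levels were 4.81, 4.82 and 4.84 in untreated Col-0, 7.47, 7.33 and 7.56 in untreated mkk1/mkk2 and 7.26, 7.87 and 7.37 in mkk1/mkk2 after BTH. The mkk1/mkk2 arrays lay above all arrays of the other genotypes, the highest of which was 6.40. It rose by 2.63 ± 0.28 in untreated mkk1/mkk2 (6.19-fold, adjusted p = 4.45e-07) and by 2.70 ± 0.28 after BTH (6.48-fold, adjusted p = 6.25e-07). In untreated mkk1 it rose by 0.83 at the threshold (adjusted p = 0.0498), a call lost in 20 of 32 settings. JAL22, on another chromosome, rose in mkk1/mkk2 by 1.87 (adjusted p = 0.00419) and 1.88 (adjusted p = 0.00637). JAL23 was called in no comparison by limma, with differences of 0.18 and −0.41 there. Probe sets of near-identical lectin genes can share signal, and how far that holds for JAL33 and JAL34 was not tested.

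Some lectins of this family bind PYK10, a β-glucosidase of the endoplasmic reticulum bodies that acts as a myrosinase, and NAI2 is needed to form those bodies. Of the list of 28 lectin and myrosinase genes, which includes the lectins above, 6 were measured. In untreated mkk1/mkk2 4 of the 6 rose and 0 fell (33.3% of all probe sets called), and after BTH 4 rose and 0 fell (21.6%), the same 4 genes, JAL33, JAL22, PYK10 and NAI2. JAL23 and NAI1 did not pass. The medians were 1.82 and 1.80, against −0.01 and −0.05 over all probe sets. PYK10 had levels of 4.23, 5.02 and 4.68 in untreated Col-0 and 7.76, 9.53 and 9.68 in untreated mkk1/mkk2, a rise of 4.35 ± 0.92 (20.4-fold, adjusted p = 0.00089), and it rose by 4.08 after BTH (adjusted p = 0.00262). NAI2 rose by 1.78 (adjusted p = 0.000725) and 1.71 (adjusted p = 0.00174). In untreated mkk1 2 of the 6 rose (17.3% of all probe sets called), PYK10 (3.30, adjusted p = 0.0173, and up to 0.0782 without array A of Col-0 or A or B of mkk1) and JAL33. With BTH none of the 6 was called in any genotype by limma. At an unadjusted p under 0.05 there were 3 of 6 in mkk1, against 4602 of all 22746 probe sets. In Col-0, mkk2 and mkk1/mkk2 there were 0, against 4611, 4801 and 2770.

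PYK10 is also a marker of roots and hypocotyls. Its levels moved with those of JAL34, with a correlation of 0.91 over the 24 arrays. Within groups single arrays differed in this. Array B of untreated mkk2, which stood apart, had the highest value of its group for JAL34 (6.47), JAL33 (6.40) and PYK10 (8.52), where the other 2 arrays had PYK10 at 4.59 and 4.67. In untreated mkk1/mkk2, array A had PYK10 at 7.76, against 9.53 and 9.68 on B and C. JAL34 was at 8.17 on that array A, between 8.31 and 8.07 on B and C. Of 11 root markers 2 were measured, and their mean ran from 4.13 to 4.79 on the arrays of untreated Col-0 and from 6.33 to 6.88 and 6.38 to 6.85 on those of mkk1/mkk2 before and after BTH. The other marker, EXPA7 of root hairs, had group means between 3.97 and 4.58 and was called in no comparison by limma. Of 6 leaf photosynthesis markers 4 were measured, and 3 fell in untreated mkk1/mkk2 (33.3% of all probe sets called) and 2 after BTH (21.6%). Their mean lay between 11.66 and 12.21 in untreated Col-0 and at 10.46 to 11.09 and 10.56 to 10.68 in mkk1/mkk2. The marker lists were made with earlier results of these data known, so these counts are a description only. Flower markers were not analysed here. The part of root or leaf content in the JMT and JAL34 levels was not tested.

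**Figure D3:**
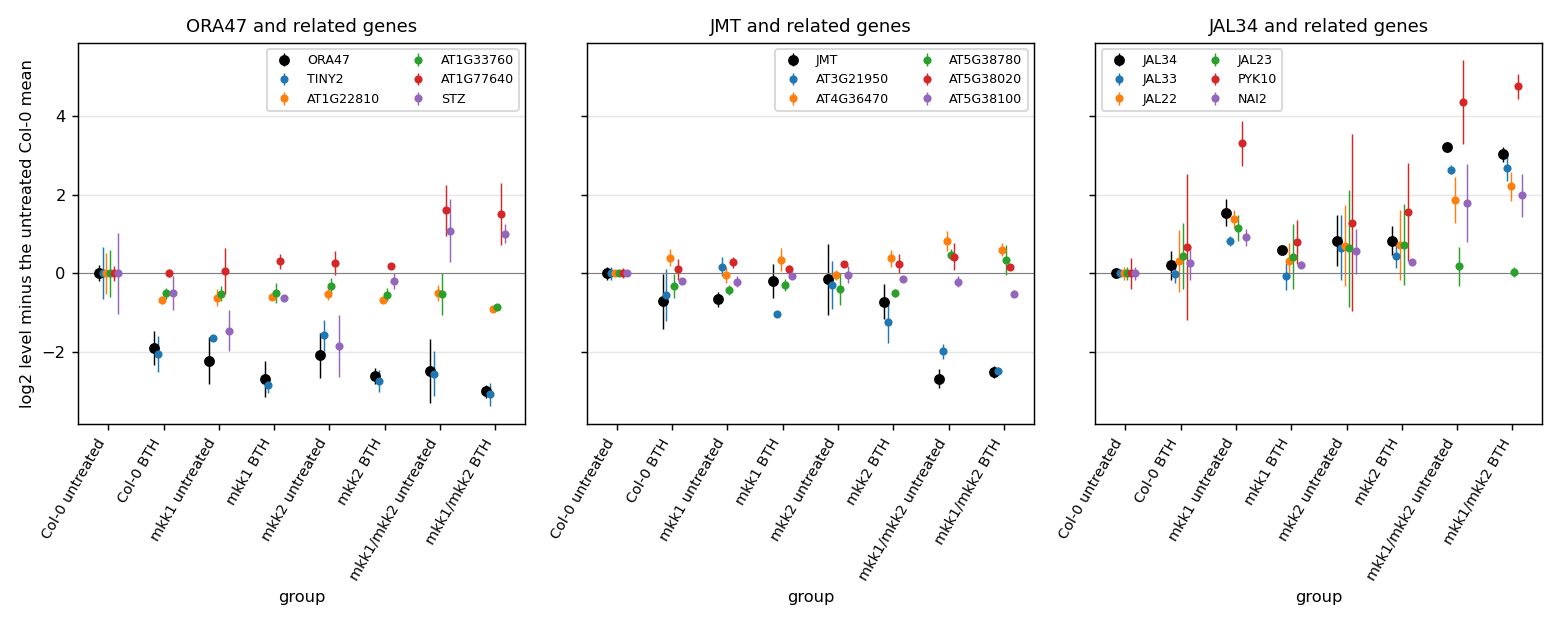
Group mean of the log2 level minus the untreated Col-0 mean of the same gene (vertical axis, bars ± SD of 3 arrays) in the 8 groups (horizontal axis) for ORA47, JMT and JAL34 in black and for family members or associated genes in colour. TINY2 lies near ORA47, AT3G21950 lies below Col-0 in mkk1/mkk2 as JMT does, and JAL33, JAL22, PYK10 and NAI2 lie above it there as JAL34 does, while JAL23 does not.

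The neighbours on the chromosome were followed for each gene, as the nearest measured gene on either side. ORA47 lies next to ALDH10A8, an aldehyde dehydrogenase gene, with 0 genes between, and AT1G74940 was 1 gene away on the other side. In the untreated single mutants, where ORA47 was low, ALDH10A8 showed rises of 1.19 in mkk1 (adjusted p = 0.00213) and 1.10 in mkk2 (adjusted p = 0.00872). These comparisons also cross the 2 sets of arrays parted by bioC and bioD. In untreated mkk1/mkk2, where ORA47 was lower still, the ALDH10A8 mean was 8.54, against 8.03 in untreated Col-0. AT1G74940 fell in untreated mkk1/mkk2 by 1.36 (adjusted p = 0.000171) and after BTH by 0.70 (adjusted p = 0.0453), and neither gene was called with BTH in Col-0 (0.45 and −0.36). Of the neighbours of JMT, AT1G19620 was called in no comparison, and AT1G19650 fell in untreated mkk1/mkk2 by 0.87 (adjusted p = 0.00708). On the side of JAL34 away from JAL33, IQD26 rose in untreated mkk1 by 1.0 (adjusted p = 0.024) and was not called in mkk1/mkk2 (0.42 untreated and 0.31 after BTH). The alternatives were not run for these neighbours, JAL33 excepted.

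GRX480 is a glutaredoxin gene induced by salicylic acid that can repress PDF1.2. It was the 1 gene of 14 on a salicylate list with a probe set of its own in the annotation used. Its levels were 5.85, 5.69 and 5.74 in untreated Col-0 and 9.60, 9.65 and 8.92 after BTH, a rise of 3.63 ± 0.23 (adjusted p = 3.64e-09). It rose with BTH by 3.03 in mkk1 (adjusted p = 4.22e-08) and 2.83 in mkk2 (adjusted p = 6.57e-08). The arrays labelled BTH in Col-0 and mkk1, whose notes name a control treatment, thus differed from the untreated arrays in this gene as those of mkk2 did. Untreated mkk1/mkk2 stood at 10.17, 10.04 and 10.42, above Col-0 by 4.45 (adjusted p = 2.5e-11), and the difference with BTH there was −0.40. JMT and JAL34 had their extreme levels in the same untreated mkk1/mkk2 arrays, and ORA47 was lower there than in Col-0. Elsewhere the genes differed. Against untreated Col-0, GRX480 differed by −0.02 in untreated mkk1 and 0.22 in untreated mkk2. ORA47 differed there by −2.22 and −2.09, and JAL34 by 1.54 and 0.83. With BTH in Col-0, JAL34 differed by 0.20. A link between GRX480 and these genes was not tested.

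The genes whose levels ran most like each of the 3 were sought among the 13354 other genes with a probe set of their own, by Pearson's r over the 24 arrays. For ORA47 they were AFR (r = 0.944), AT3G01210 (0.923), AT2G15020 (0.919), AT5G17600 (0.912) and AT3G52360 (0.910). AFR encodes an F-box protein of phytochrome A light signalling. Its group means were 8.45 in untreated Col-0 and 7.06 after BTH, and between 6.07 and 6.97 in the mutants. Without the untreated Col-0 arrays the 5 coefficients were lower, between 0.713 and 0.848, and the r of the deviations from group means was between 0.501 and 0.769. The genes that ran most opposite were AT5G63190 (−0.899), AT3G47800 (−0.898) and AT2G31810 (−0.869). The median r with ORA47 over all the other genes was 0.12.

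For JMT the most alike were AT1G64680 (0.963), AT5G03880 (0.961), AT5G63040 (0.957), AT3G24190 (0.950) and AT5G59130 (0.948), and the median over all genes was 0.13. AT1G64680 kept an r of 0.873 over the 18 arrays without mkk1/mkk2 and of 0.904 for deviations from group means, so it ran with JMT also within groups. AT5G59130 had group means between 7.68 and 8.67 outside mkk1/mkk2 and of 4.88 and 4.55 within it. Most opposite were AT1G29160 (−0.935), LCR69 (−0.933), which encodes a small cysteine-rich protein, and AT5G26731 (−0.931).

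For JAL34 the most alike were AT5G64110 (0.968), JAL33 (0.959), WES1 (0.952), GH3.3 (0.949) and GH3.17 (0.949), with a median of −0.11 over all genes. WES1 (also GH3.5), GH3.3 and GH3.17 belong to the GH3 family, enzymes that join amino acids to auxin and related acids. Group means of GH3.3 were between 3.45 and 5.28 outside mkk1/mkk2 and 9.26 and 9.90 within it. Without the mkk1/mkk2 arrays the 5 coefficients lay between 0.741 (GH3.3) and 0.863 (AT5G64110). For deviations from group means they lay between 0.243 (WES1) and 0.832 (AT5G64110), so the likeness of WES1 lay mainly between groups. Most opposite were AT5G22390 (−0.950), AT1G67865 (−0.947) and AT3G01960 (−0.942). All these coefficients describe the 24 arrays, which share groups and normalization, and carry no test.

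**Figure D4:**
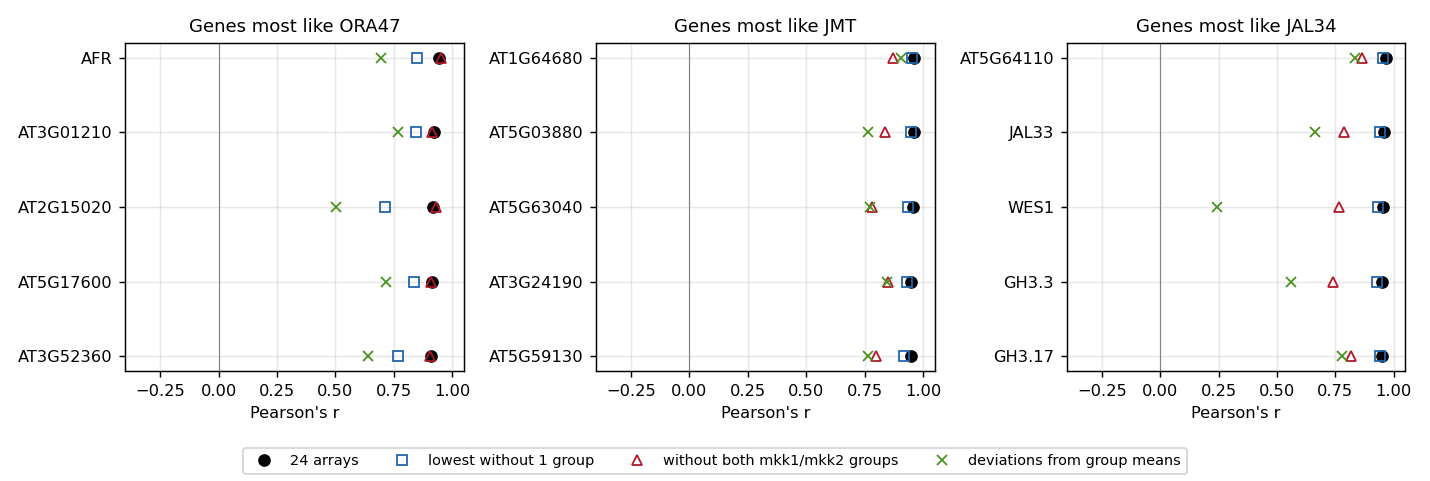
Pearson's r (horizontal axis) between ORA47, JMT or JAL34 and the 5 genes most like each (vertical axis) over 24 arrays, at its lowest when 1 group is left out, without both mkk1/mkk2 groups (18 arrays) and for deviations from group means. Leaving out 1 group lowers r most for the genes like ORA47 (to 0.713), and WES1 has the lowest r of deviations (0.243).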

How the data were processed

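Transcript levels were measured on 24 ATH1 arrays, 1 per sample, with groups and replicate letters taken from the sample titles. The deposited values are on the log2 scale and came from RMA, robust multi-array averaging, per the submitters' processing notes. The RMA version and the set of arrays normalized together are not given in the sources used here. Of 22810 probe sets 64 controls were set aside and 22746 tested with no filter on level and no further transformation. No 2 arrays were identical (0 pairs). The array annotation gave 1 gene symbol for 13513 probe sets, 13436 of them in the reference table, several for 503 and none for 8730, and only the first kind was named. Where a gene had more than 1 probe set, the brightest was used.

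Comparisons were contrasts in a model of 8 group means over all 24 arrays (limma 3.58.1, lmFit and eBayes, R 4.3.3), adjusted by the Benjamini-Hochberg method over 22746 probe sets and called under 0.05. The fit was tested on simulated data. The members and the gene lists (jasmonate synthesis, turnover, signalling and response, SABATH, DREB A-5 and AP2/ERF factors, rapid stress response, lectin and myrosinase genes, salicylate response, root, leaf and flower markers) were chosen with earlier results of these data known. AP2/ERF and lectin members beyond those lists were found by symbol. Named were the members, up to 4 called genes per list and comparison, PDF1.2 and GRX480, the 5 most and 3 least alike genes per member, and the chromosomal neighbours, which were added to that rule afterwards. Alternatives left out single arrays or the 3 that stood apart, normalized again, averaged probe sets, or changed the model or filter. No nucleotide or protein sequence was used here.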

Additional observations from a re-analysis of the deposited data

Results flagged for a closer look

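Among the listed genes, the response to BTH differed between mkk1/mkk2 and Col-0 in 2 by the limma test of that difference. GRX480 had a response lower by −4.03 (log2, adjusted p = 4.53e-07), and PUB25 had one higher by 1.83 (adjusted p = 0.0308). The PUB25 call ended when any of 7 single arrays was left out, with adjusted p of up to 0.0929, and without array C of untreated Col-0, array A or C of Col-0 after BTH, array B or C of untreated mkk1/mkk2 or array A or B of mkk1/mkk2 after BTH in particular. In 2 genes the arrays before and after BTH did not overlap in mutants whose differences had opposite signs, and these differences were not tested. Of all probe sets, 31.2% did not overlap in mkk1, 27.8% in mkk2 and 12.8% in mkk1/mkk2. GRX480 was higher after BTH in mkk1 (3.03) and mkk2 (2.83) and lower in mkk1/mkk2 (−0.40). IQD26, the neighbour of JAL34, was lower after BTH in mkk1 (−0.90) and higher in mkk1/mkk2 (0.20). In mkk1/mkk2 both genes parted narrowly. The highest untreated IQD26 array was at 4.11 and the lowest after BTH at 4.12. For GRX480 the lowest untreated array was at 10.04 and the highest after BTH at 9.97.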

How the results depend on the processing

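Of 1092 values for differences of ORA47, JMT and JAL34 under the alternatives, 1079 moved by less than the spread between replicates. Many of these could not move, since an array of a group outside a comparison does not enter its difference. Averaging probe sets could not move them either, as each gene had 1. The count of 1079 is therefore no measure of robustness. Of the 13 values that moved further, 12 concern mkk2 and turn on array B of untreated mkk2 or on the 3 arrays. The remaining 1 concerns ORA47 in mkk1/mkk2. Over the fits that left out 1 array, JMT in mkk2 ranged from −1.06 to −0.18 with BTH (−1.06 without the 3 arrays that stood apart), from −0.54 to 0.34 untreated (0.34) and from −0.34 to 0.54 for the response (−0.65). JAL34 in mkk2 ranged from −0.31 to 0.33 with BTH (0.33), from 0.50 to 1.14 untreated (0.50) and from −0.52 to 0.13 for the response (0.33). The ORA47 response of mkk1/mkk2 was 2.03 without those 3 arrays.

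Calls of the 13 jasmonate genes with BTH numbered 0, and 0 to 3 with 1 array left out, 4 with array weights and 1 with only the arrays compared. In the untreated comparisons there were 10 calls, 5 to 13 with 1 array left out, 4 with probe sets at or above the median level and 3 with only the arrays compared. After BTH there were 4, 13 with array weights and 1 with the level filter. The lists of related genes gave 52, 111 with array weights and 21 with the level filter. The level filter tests fewer genes. For the other settings the cause was not tested. Of 2137 listed-gene calls under alternatives 185 were lost and 0 reversed.

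Correlations of deviations from group means ran from −0.39 to 0.61 between arrays of the same letter (median 0.04, 84 pairs), against a median of −0.02 for different letters (168 pairs). Since the labels state no shared source, the letters were not taken as a pairing. Still, 13 of 24 arrays were closest to their own letter, a hint from the data alone. The standard errors given for ORA47, JMT and JAL34 take no account of the letters. With a replicate block the counts were 0, 10, 4 and, for related genes, 51, and the calls of CML37 with BTH in Col-0 (adjusted p = 0.0505) and AT5G38100 in mkk1/mkk2 after BTH (0.0513) were lost. Precision is limited by 3 arrays per group, and JMT in mkk1/mkk2 lies near the low end of the scale.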
